A study of Homo sapiens with 6 samples.

Results

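The PARP family of ADP-ribosyltransferases and DTX3L, the ubiquitin ligase that partners PARP9, were examined in SiHa cells with and without a BRCA1 expression plasmid. The 10 genes described are PARP9, DTX3L, PARP14, PARP12, ZC3HAV1, PARP10, PARP8, TIPARP, PARP1 and PARP2. They were chosen by name, out of 58174 genes in the deposited expression table, and all 10 were among the 16321 genes that passed the filter on low values (at least 0.5 FPKM in at least 3 samples). FPKM is the number of sequenced fragments scaled by transcript length and by all mapped fragments of the sample. A gene's FPKM was the sum over its transcripts, named by the GENCODE 29 annotation.

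SiHa is an established human cell line from a cervical squamous cell carcinoma that carries human papillomavirus DNA. The OV-BRCA1 group (3 samples) was transfected with the GV230-BRCA1 plasmid and the NC group (3 samples) with the empty GV230 plasmid. Both groups received Lipofectamine 3000 and were incubated for 48 h, so all 6 samples carried plasmid DNA and transfection reagent. The experiment used 1 cell line, and transfection was transient, so each library averaged over cells with and without plasmid. The study's methods call the 3 samples of a group biological replicates and do not say whether they were separately grown and transfected cultures, so p-values measure the spread between these samples. In such bulk samples a change in the share of responding cells and a change in RNA per cell cannot be told apart.

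PARP enzymes take ADP-ribose from NAD and attach it to proteins or nucleic acids. PARP1 and PARP2 bind broken DNA and build poly(ADP-ribose) chains that recruit repair factors, and they are the targets of the PARP inhibitors used against BRCA-mutant tumours. Most other family members attach single ADP-ribose units, and several of them are induced by interferon and act against viruses.

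BRCA1 was 35.7, 40.8 and 34.9 FPKM in the OV-BRCA1 samples and 20.1, 14.9 and 21.7 FPKM in the NC samples. The lowest OV-BRCA1 sample exceeded the highest NC sample. The log2 fold change of FPKM + 1 was 0.95 (SE 0.14, adjusted p = 0.00373, limma with Benjamini-Hochberg adjustment). These values do not separate plasmid RNA from chromosomal RNA. The depth, estimated from the step between low FPKM values, was 14.4 M to 20.4 M fragments a sample, and the least covered value among the 10 genes rested on an estimated 266 fragments (PARP8). The list of 8 squamous epithelial markers also held genes not particular to squamous cells, among them CDKN2A, EPCAM and CDH1. KRT17 and CDKN2A were high in both groups, KRT5, KRT14, KRT6A, TP63 and CDH1 were low in both, and EPCAM lay between. The markers moved in both directions, with KRT17 called lower (1033 against 1434 FPKM, log2 fold change -0.48), EPCAM higher (6.79 against 2.59 FPKM, 1.12) and KRT6A higher at a low level (1.09 against 0.173 FPKM, 0.84). The summed FPKM of the 6 leukocyte markers was 22.3 to 29.5 in the OV-BRCA1 samples and 2.97 to 4.38 in the NC samples, nearly all of it from CD68, a lysosomal protein, while PTPRC, the common leukocyte antigen, was listed at 0 in every sample. Endothelial and fibroblast markers summed to at most 1.61 FPKM. The part of these marker differences in the results was not tested.

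Neither DNA-repair member shared the direction of the antiviral members. The antiviral members (PARP9, DTX3L, PARP14, PARP12, ZC3HAV1 and PARP10) were upregulated in the OV-BRCA1 group by 1.82-fold to 4.09-fold in mean FPKM. Among the DNA-repair members, PARP1 did not differ detectably and PARP2 was downregulated to 0.667 of its NC level. TIPARP and PARP8, which belong to neither class, were 1.23-fold and 2.39-fold higher.

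Of the 10 genes, 8 were called higher (adjusted p below 0.05), against 16.4% of all genes tested, and 1 was called lower, against 18.9%. The 6 upregulated DEGs, which also had a log2 fold change above 1, were PARP9, DTX3L, PARP14, PARP12, ZC3HAV1 and PARP8. Such DEGs made up 2.89% of all genes tested. In 8 genes every OV-BRCA1 sample was above every NC sample, as in 23.4% of all genes tested. In PARP2 every OV-BRCA1 sample was below every NC sample, as in 27.4%. Their median log2 fold change was 1.17, beside -0.04 over all genes tested.

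**Figure D1:**
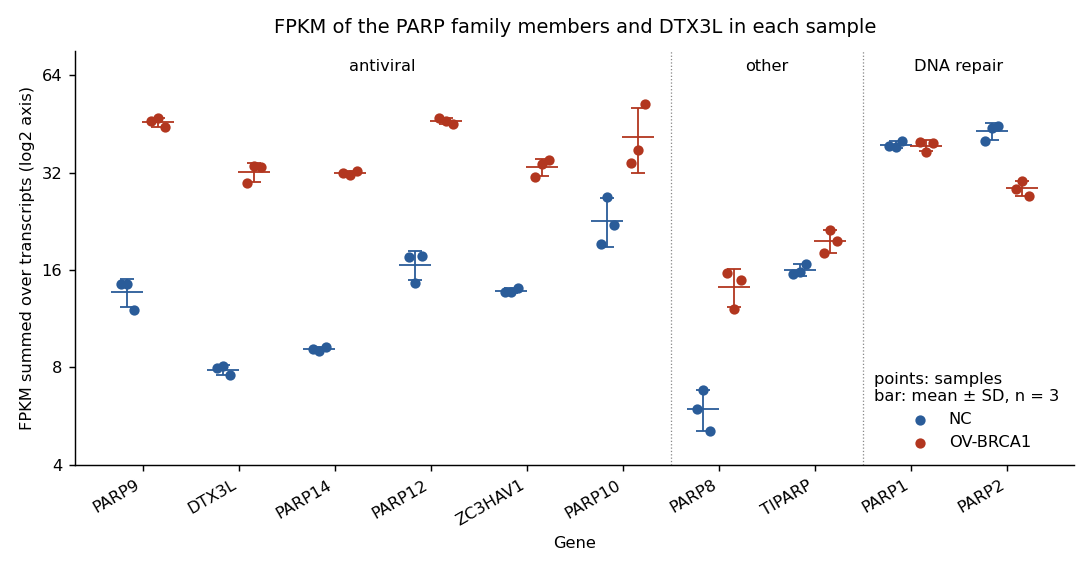
FPKM of the 10 genes (log2 axis) in the 3 NC and 3 OV-BRCA1 samples, with the mean and SD of each group (n = 3). The groups are apart in every antiviral gene, overlap for PARP1, and lie in the opposite order for PARP2.

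PARP9 and DTX3L are neighbours on chromosome 3 whose proteins form a complex. DTX3L is a Deltex family E3 ubiquitin ligase, and PARP9 carries macrodomains that read ADP-ribose. The complex is known to act in interferon responses and at damaged chromatin. PARP9 (ENSG00000138496) lies at chr3:122527924-122564577 on the minus strand in GRCh38, and DTX3L (ENSG00000163840) at chr3:122564238-122575203 on the plus strand. Their gene models overlap by 340 bp at the start sites. Whether the quantification used strand is not given in the sources used here, so fragments from the overlap may have been assigned to either gene.

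PARP9 was 46.3, 47.2 and 44.3 FPKM in the OV-BRCA1 samples and 14.5, 14.5 and 12.1 FPKM in the NC samples. The lowest OV-BRCA1 sample was well above the highest NC sample. Its mean rose 3.36-fold, from 13.7 ± 1.39 to 45.9 ± 1.48 FPKM (SD, n = 3), with a log2 fold change of 1.68 (SE 0.08, adjusted p = 4.57e-05, limma with Benjamini-Hochberg adjustment). DTX3L was 29.7, 33.5 and 33.4 FPKM against 7.97, 8.06 and 7.56 FPKM. Here too the groups were far apart, and the NC values were close together. DTX3L rose 4.09-fold, from 7.86 ± 0.270 to 32.2 ± 2.16 FPKM (SD, n = 3), which was the largest fold of the 10 genes (log2 fold change 1.90, SE 0.07, limma adjusted p = 1.36e-05).

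The ratio of PARP9 to DTX3L FPKM was 1.56, 1.41 and 1.33 in the OV-BRCA1 samples and 1.81, 1.80 and 1.60 in the NC samples. The ratio was lower in every OV-BRCA1 sample, by 0.28 on the log2 scale, with p = 0.1 in an exact two-sided permutation test, the smallest p that 3 samples against 3 can give. With the most abundant transcript of each gene the difference was -0.05, so the ratio depended on how transcripts were summed. Nearly all PARP9 FPKM came from coding transcripts (94.1% to 98.4% over the samples), and all DTX3L FPKM did.

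PARP14 (ENSG00000173193) lies on the plus strand at chr3:122680618-122730840, and the stretch from PARP9 to PARP14 measures 203 kb. It is a large mono-ADP-ribosyltransferase with macrodomains, known as a partner of STAT6 in interleukin-4 signalling. PARP14 was 31.9, 31.5 and 32.4 FPKM in the OV-BRCA1 samples and 9.12, 8.98 and 9.25 FPKM in the NC samples. The SD within each group was the smallest of the 10 genes. It rose 3.50-fold, from 9.12 ± 0.139 to 31.9 ± 0.481 FPKM (SD, n = 3), with a log2 fold change of 1.70 (SE 0.05, limma adjusted p = 7.30e-06).

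Between DTX3L and PARP14 lies PARP15, another mono-ADP-ribosyltransferase, which was listed at no more than 0.0171 FPKM in any sample and was not tested. The stretch from PARP9 to PARP14 with 200 kb on each side held 17 annotated genes, of which 12 were tested, 5 were called higher and 0 lower. Besides the members these were CCDC58 (log2 fold change 0.37, limma adjusted p = 0.0219) and DIRC2 (0.60, limma adjusted p = 0.00899). The direct neighbours on the outer sides did not pass the test. KPNA1, an importin, beside PARP9, had a log2 fold change of 0.28 (limma adjusted p = 0.324), and HSPBAP1, beside PARP14, had -0.20 (limma adjusted p = 0.138).

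**Figure D2:**
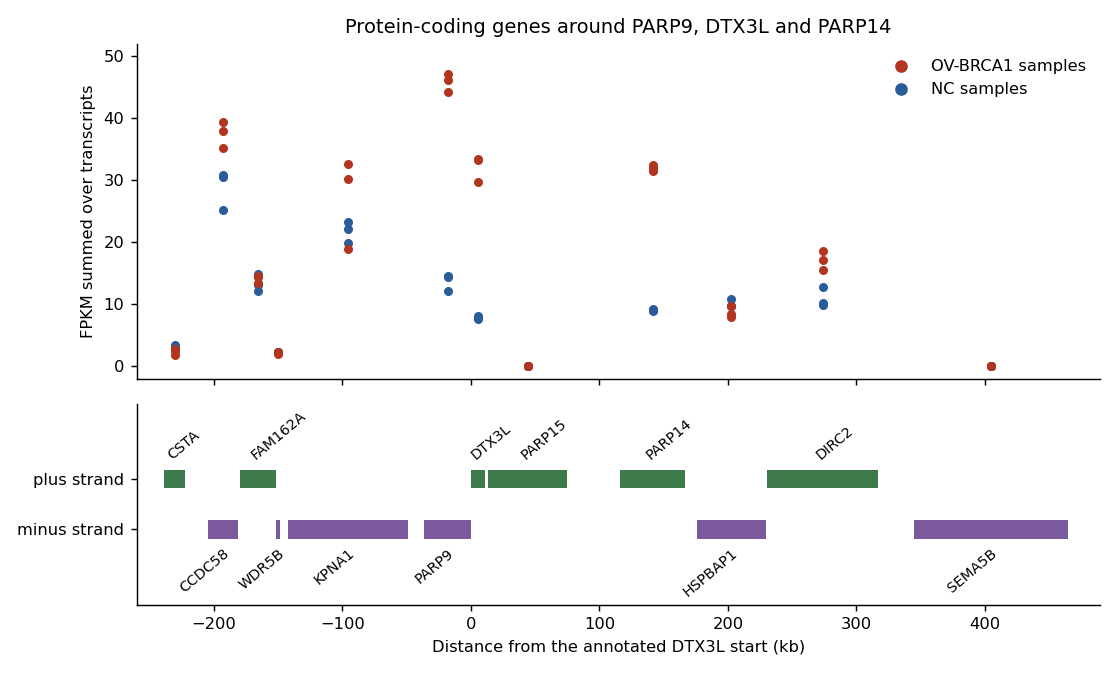
FPKM in each sample of the protein-coding genes around PARP9, DTX3L and PARP14 (upper panel), placed at the middle of each gene model, and the gene models by strand (lower panel), in kb from the DTX3L start. PARP9, DTX3L and PARP14 have the widest gaps between the groups, while PARP15 between them is near 0 in both.

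The promoters of the 10 genes were searched on both strands for the core of the interferon-stimulated response element (ISRE), written as GAAA, any 2 bases (NN) and GAAA again. The ISRE is the site that the transcription factor complex ISGF3 binds in interferon-induced genes. RefSeq promoter windows (GRCh38.p14, 250 bases before to 50 after each start site) matched 9 of the 10 genes by symbol, PARP10 having none. The core was found in 4 of these 9 genes, in 4.38% of all 27305 genes with a window, and in 23.7% of the upregulated DEGs with one. PARP9 and DTX3L share a single copy of it, at the DTX3L start site and upstream of PARP9. The matches are given on the strand that reads GAAA, 5′ to 3′, with the core in capitals, because 4 of the upregulated members have this sequence feature in common.
PARP9 and DTX3L, chr3:122564323-122564350, plus strand: cagggaagcGAAACTGAAActttgcgcc
PARP14, chr3:122680801-122680828, plus strand: ccaggaaacGAAAGCGAAAgagtcaaag
PARP12, chr7:140062943-140062970, plus strand: gcgggaaacGAAACCGAAAgcggccccg

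Counted from the RefSeq start site as base 0, the core lay at bases -41 to -32 for PARP9, -6 to 3 for DTX3L, -29 to -20 for PARP14 and -10 to -1 for PARP12. In GENCODE 29 the shared copy fell in an exon of 1 of 2 DTX3L transcripts and in an intron of 2 of 7 PARP9 transcripts, and outside the others. The PARP14 and PARP12 copies each fell in an exon of 1 transcript and outside the remaining ones. No match was found in the windows of ZC3HAV1, PARP8, TIPARP, PARP1 and PARP2, which says only that these letters are not in those windows. For comparison, the 100 bases before the start site are given for ZC3HAV1, which was upregulated without a match, and for PARP1, which did not differ detectably.
ZC3HAV1, chr7:139109721-139109820, minus strand: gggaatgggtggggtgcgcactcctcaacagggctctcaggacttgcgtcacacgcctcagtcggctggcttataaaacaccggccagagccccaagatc
PARP1, chr1:226408094-226408193, minus strand: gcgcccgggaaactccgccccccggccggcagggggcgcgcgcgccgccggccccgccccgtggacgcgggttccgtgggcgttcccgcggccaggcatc

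These bases were 61.0% G or C for ZC3HAV1 and 85.0% for PARP1. A match describes the sequence and is not evidence that a factor was bound there in these cells.

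PARP12 and ZC3HAV1, both on chromosome 7, are relatives that carry CCCH zinc fingers, which bind RNA. PARP12 (ENSG00000059378, chr7:140023744-140063721, minus strand) is a mono-ADP-ribosyltransferase of the Golgi and stress granules that restricts several RNA viruses. PARP12 was 47.3, 46.3 and 45.2 FPKM in the OV-BRCA1 samples and 17.6, 14.6 and 17.6 FPKM in the NC samples. In sums over all transcripts it had the highest mean of the 10 genes in the OV-BRCA1 group, with samples overlapping those of PARP9 and PARP10. The rise was 2.78-fold, from 16.6 ± 1.71 to 46.3 ± 1.01 FPKM (SD, n = 3), with a log2 fold change of 1.43 (SE 0.08, limma adjusted p = 8.74e-05).

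Most of the PARP12 value came from transcripts annotated with a retained intron, which made up 68.3% to 71.2% of it in the OV-BRCA1 samples and 69.2% to 85.6% in the NC samples. The full-length coding transcript PARP12-201 held 0.427 ± 0.289 FPKM in the OV-BRCA1 group against 0.167 ± 0.167 FPKM in the NC group (SD, n = 3). The nonsense-mediated decay transcript PARP12-210 was 6.99, 7.70 and 8.54 FPKM in the OV-BRCA1 samples and at most 0.0019 FPKM in the NC samples. Summed over coding transcripts alone, PARP12 was 4.04, 2.90 and 3.99 FPKM in the OV-BRCA1 samples and 2.18, 2.09 and 1.67 FPKM in the NC samples, the lowest such level of the 10 genes in both groups. It still rose, with a log2 fold change of 0.63 (limma adjusted p = 0.0195). How the deposited values were divided among overlapping transcripts is not given in the sources used here, so the split is less certain than the gene sum.

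ZC3HAV1 (ENSG00000105939, chr7:139043520-139109719, minus strand) encodes ZAP, the zinc finger antiviral protein, which binds CpG-rich viral RNA and targets it for decay. Its PARP-like domain has no catalytic activity and is present only in the long form. ZC3HAV1 was 31.1, 33.9 and 35.0 FPKM in the OV-BRCA1 samples and 13.7, 13.7 and 14.1 FPKM in the NC samples. The groups were far apart, and the NC values were nearly equal. The mean rose 2.41-fold, from 13.8 ± 0.230 to 33.3 ± 2.04 FPKM (SD, n = 3), with a log2 fold change of 1.21 (SE 0.06, limma adjusted p = 5.93e-05).

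Both forms of ZC3HAV1 were higher in every OV-BRCA1 sample. Transcripts that reach the distal 3′ end, which encode the long form, held 23.3, 25.7 and 25.2 FPKM against 11.002, 11.4 and 11.03 FPKM, a 2.22-fold difference. Transcripts that end at the proximal site, which lack the PARP-like domain, held 7.75, 8.28 and 9.83 FPKM against 2.67, 2.37 and 3.07 FPKM, a 3.19-fold difference. The long-form share was thus 75.0%, 75.6% and 71.9% in the OV-BRCA1 samples and 80.5%, 82.7% and 78.2% in the NC samples. It was lower by 6.28 percentage points on average, with p = 0.1 in an exact two-sided permutation test, the smallest possible. This difference rested on ZC3HAV1-202, a short-form transcript with 5.27 ± 1.87 against 1.03 ± 0.890 FPKM (SD, n = 3), whose annotated coding length of 790 bases is not in whole codons. The other short-form transcript, ZC3HAV1-204, had 3.35 ± 0.959 against 1.68 ± 0.642 FPKM (SD, n = 3), a 1.997-fold difference. Without ZC3HAV1-202 the long-form share was 83.9%, 90.3% and 89.9% in the OV-BRCA1 samples and 90.9%, 82.7% and 87.7% in the NC samples, the groups overlapped and the difference was 0.965 points (exact permutation p = 0.7). With only the most abundant transcript of each form, ZC3HAV1-201 and ZC3HAV1-202, the groups overlapped too, the difference was -9.47 points and the exact permutation p was 0.2.

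PARP10 (ENSG00000178685, chr8:143977153-144012772, minus strand) is a mono-ADP-ribosyltransferase that restrains replication of alphaviruses. PARP10 was 34.4, 37.7 and 52.1 FPKM in the OV-BRCA1 samples and 19.2, 27.01 and 22.1 FPKM in the NC samples. The groups did not overlap, but the spread was the widest among the 10 genes, with the OV-BRCA1 replicate 3 sample high. It rose 1.82-fold, from 22.8 ± 3.94 to 41.4 ± 9.41 FPKM (SD, n = 3), with a log2 fold change of 0.82 (SE 0.18, limma adjusted p = 0.0158), and was not a DEG.

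The PARP10 call held in the sum over transcripts of all kinds and was lost with its most abundant transcript alone (log2 fold change 0.69, limma adjusted p = 0.376) and over coding transcripts. Its coding transcripts held 19.4 ± 4.93 FPKM in the OV-BRCA1 group against 11.6 ± 3.39 FPKM in the NC group (SD, n = 3), with overlapping samples and a log2 fold change of 0.70 (limma adjusted p = 0.113). PARP10 has 23 annotated transcripts and overlaps GRINA on the opposite strand by 3358 bp. GRINA stood at 169 FPKM in the OV-BRCA1 group against 156 FPKM in the NC group, and the part of its fragments in the PARP10 value was not tested.

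TIPARP (ENSG00000163659, chr3:156673235-156706770, plus strand), also known as PARP7, is a mono-ADP-ribosyltransferase induced by the aryl hydrocarbon receptor and a brake on type I interferon induction. TIPARP was 18.1, 21.2 and 19.7 FPKM in the OV-BRCA1 samples and 15.5, 15.8 and 16.8 FPKM in the NC samples. The groups were close but did not overlap. The log2 fold change was 0.28 (SE 0.07), and its adjusted p of 0.0298 (limma) was near the threshold. The call was lost without OV-BRCA1 replicate 2, OV-BRCA1 replicate 3, NC replicate 1 or NC replicate 2 (limma adjusted p = 0.0780, 0.0770, 0.0858 and 0.0804), with the replicate number as a block (0.0547), with no filter on low values (0.0521) and with scaling to nuclear protein-coding genes (0.0598).

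TIPARP values moved between transcripts of equal coding length from sample to sample. TIPARP-201 held 3.06, 5.01 and 19.7 FPKM in the OV-BRCA1 samples and 15.5, 2.998 and 16.7 FPKM in the NC samples, and the gene sum varied far less. With this transcript alone the log2 fold change was -0.40.

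PARP8 (ENSG00000151883, chr5:50665899-50846522, plus strand) is a little-studied mono-ADP-ribosyltransferase. PARP8 was 15.7, 12.1 and 14.9 FPKM in the OV-BRCA1 samples and 5.94, 6.81 and 5.07 FPKM in the NC samples. It was the least abundant of the 10 genes in both groups in sums over all transcripts, and above PARP12 over coding transcripts. The mean rose 2.39-fold, from 5.94 ± 0.868 to 14.2 ± 1.88 FPKM (SD, n = 3), with a log2 fold change of 1.13 (SE 0.13, limma adjusted p = 0.00139). Its coding transcripts rose from 4.04 ± 0.337 to 11.9 ± 2.68 FPKM (SD, n = 3), but with the most abundant transcript alone the call was lost (log2 fold change 0.85, limma adjusted p = 0.111).

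The DNA-repair members differed from the antiviral ones and from each other. PARP1 (ENSG00000143799, chr1:226360691-226408079, minus strand) makes most of the poly(ADP-ribose) formed at DNA breaks. PARP1 was 39.8, 37.1 and 39.4 FPKM in the OV-BRCA1 samples and 38.6, 38.5 and 40.1 FPKM in the NC samples. The groups overlapped. The log2 fold change was -0.01 (SE 0.05, limma adjusted p = 0.904) with a 95% interval from -0.13 to 0.11, and its sign turned positive under several alternatives.

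PARP2 (ENSG00000129484, chr14:20343582-20357905, plus strand) is a smaller relative that shares the poly(ADP-ribose) role and joins PARP1 at single-strand breaks. PARP2 was 28.6, 30.2 and 27.1 FPKM in the OV-BRCA1 samples and 40.1, 44.1 and 44.7 FPKM in the NC samples. Every OV-BRCA1 sample was lower. The mean fell from 42.9 ± 2.51 to 28.6 ± 1.54 FPKM (SD, n = 3), with a log2 fold change of -0.57 (SE 0.07, limma adjusted p = 0.00148).

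Much of the PARP2 difference was in retained-intron transcripts. These held 6.22, 6.46 and 5.95 FPKM in the OV-BRCA1 samples and 12.5, 15.7 and 15.3 FPKM in the NC samples, which was 21.4% to 21.9% of the gene in the OV-BRCA1 group against 31.2% to 35.6% in the NC group. Coding transcripts held 21.2, 22.7 and 20.3 FPKM against 26.7, 27.5 and 28.4 FPKM, again lower in every OV-BRCA1 sample. In the sum over coding transcripts PARP2 fell by 0.35 on the log2 scale (limma adjusted p = 0.00858), and with the most abundant transcript alone the log2 fold change was -0.39 and the call was lost (limma adjusted p = 0.134).

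PARP2 starts 175 bp from RPPH1, the RNA component of RNase P, which is read in the opposite direction. RPPH1, named here after its values were seen, was 15.9, 15.6 and 13.3 FPKM in the OV-BRCA1 samples and 0.193, 0.815 and 1.66 FPKM in the NC samples. The FPKM of this head-to-head pair thus differed in opposite directions (log2 fold change of RPPH1 3.15, SE 0.28, limma adjusted p = 5.00e-04). The libraries were made from captured mRNA and RPPH1 is a noncoding RNA, so its FPKM may not follow its transcription, which was not tested. RPPH1 is short, and its lowest NC value rested on an estimated 1.05 fragments.

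The ratio of PARP1 to PARP2 FPKM was 1.39, 1.23 and 1.45 in the OV-BRCA1 samples and 0.963, 0.872 and 0.898 in the NC samples. In these sums, which include retained-intron transcripts, PARP2 was the more abundant in all NC samples and PARP1 in all OV-BRCA1 samples. The difference was 0.57 on the log2 scale, with p = 0.1 in an exact two-sided permutation test, the smallest possible. Over coding transcripts alone PARP1 was the more abundant in all 6 samples, with ratios of 1.69, 1.48 and 1.66 in the OV-BRCA1 samples and 1.24, 1.26 and 1.22 in the NC samples, and the difference was 0.37 (exact two-sided permutation p = 0.1).

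**Figure D3:**
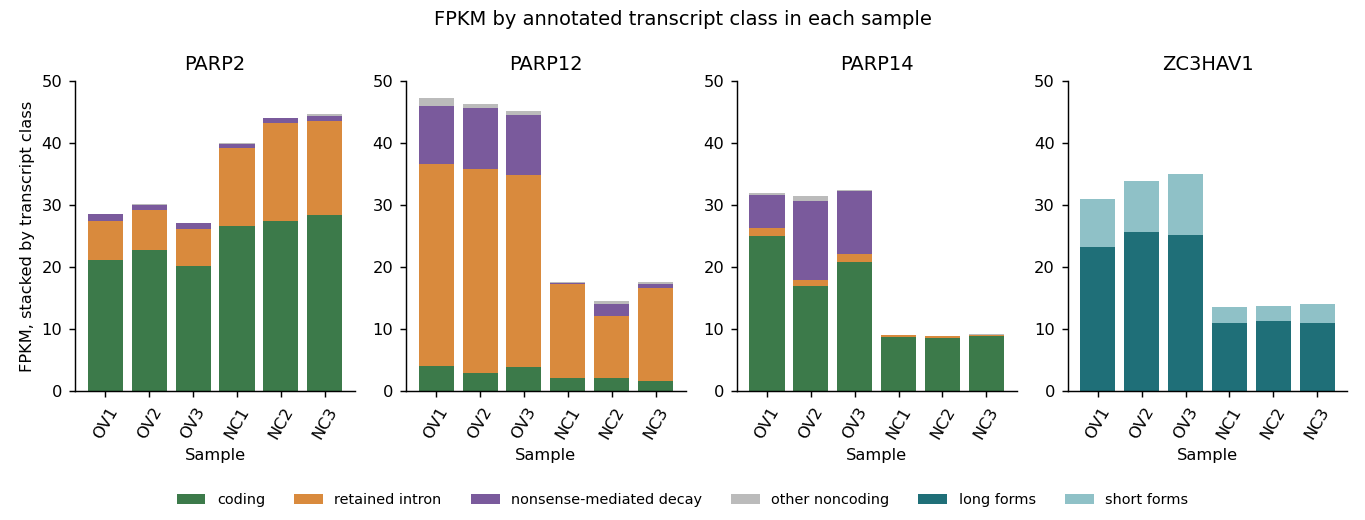
FPKM in each sample stacked by annotated transcript class for PARP2, PARP12 and PARP14, and by long and short form for ZC3HAV1 (OV1 to OV3, OV-BRCA1 samples; NC1 to NC3, NC samples). Retained-intron FPKM of PARP2 is larger in the NC samples, PARP14 has a nonsense-mediated decay transcript in the OV-BRCA1 samples and none in the NC samples, and both ZC3HAV1 forms are larger in the OV-BRCA1 samples.

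PARP14 also changed in its transcript makeup. PARP14-201, a transcript annotated for nonsense-mediated decay, held 5.29, 12.8 and 10.2 FPKM in the OV-BRCA1 samples, whereas each NC sample lists it at 0. The coding transcripts of PARP14 rose from 8.75 ± 0.143 to 21.0 ± 4.02 FPKM (SD, n = 3), with a log2 fold change of 1.16 (limma adjusted p = 0.00258). The near-equal gene sums of the OV-BRCA1 samples therefore covered an uneven split between transcripts.

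Set side by side, the 6 antiviral members summed to 221, 230 and 242 FPKM in the OV-BRCA1 samples and 82.0, 86.9 and 82.7 FPKM in the NC samples. PARP1 and PARP2 together summed to 68.4, 67.3 and 66.6 FPKM against 78.6, 82.6 and 84.8 FPKM. Antiviral and DNA-repair RNA were thus near equal in the NC group, with ratios of 0.9753 to 1.05, and the antiviral sum was 3.22 to 3.64 times the DNA-repair sum in the OV-BRCA1 group. Over coding transcripts alone these ratios were 0.909 to 0.945 and 2.61 to 2.95. The antiviral members held 69.5% ± 1.10 of the FPKM of all 10 genes in the OV-BRCA1 group against 44.7% ± 0.852 in the NC group (SD, n = 3).

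All 6 antiviral members were called higher, 5 of them as DEGs, with a median log2 fold change of 1.55. Of the DNA-repair members 0 were called higher and 1 lower, with a median of -0.29. The difference between these medians was 1.84. In single samples, the mean log2(FPKM + 1) of the antiviral members minus that of the DNA-repair members was 0.09, 0.17 and 0.27 in the OV-BRCA1 group, against -1.52, -1.55 and -1.63 in the NC group. This contrast has no test, since the genes were chosen with earlier results of these data known.

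The order of the 10 genes, by FPKM summed over all transcripts, differed between the groups. In the NC group PARP2 and PARP1 stood highest, with overlapping samples, and PARP10 followed apart from its neighbours. Next came PARP12 and TIPARP, then ZC3HAV1 and PARP9, each pair with overlapping samples, and then PARP14, DTX3L and PARP8, each separate. In the OV-BRCA1 group PARP12, PARP9, PARP10 and PARP1 stood highest and each overlapped the next. ZC3HAV1, DTX3L and PARP14 came next, again with overlaps, and the spread of PARP10 reached that of ZC3HAV1. PARP2 followed, below every PARP14 sample but overlapping DTX3L, and then TIPARP and PARP8, each separate. Over coding transcripts alone the order was another one in both groups. In the OV-BRCA1 group PARP9 then stood highest (45.0 FPKM), followed by PARP1, ZC3HAV1 and DTX3L (34.4, 33.3 and 32.2 FPKM), by PARP2, PARP14, TIPARP and PARP10 with overlapping samples (21.4 to 19.4 FPKM), and by PARP8 and PARP12 (11.9 and 3.64 FPKM). In the NC group PARP1 stood above PARP2 in every sample (34.1 and 27.5 FPKM), and PARP8 and PARP12 were again last (4.04 and 1.98 FPKM).

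**Figure D4:**
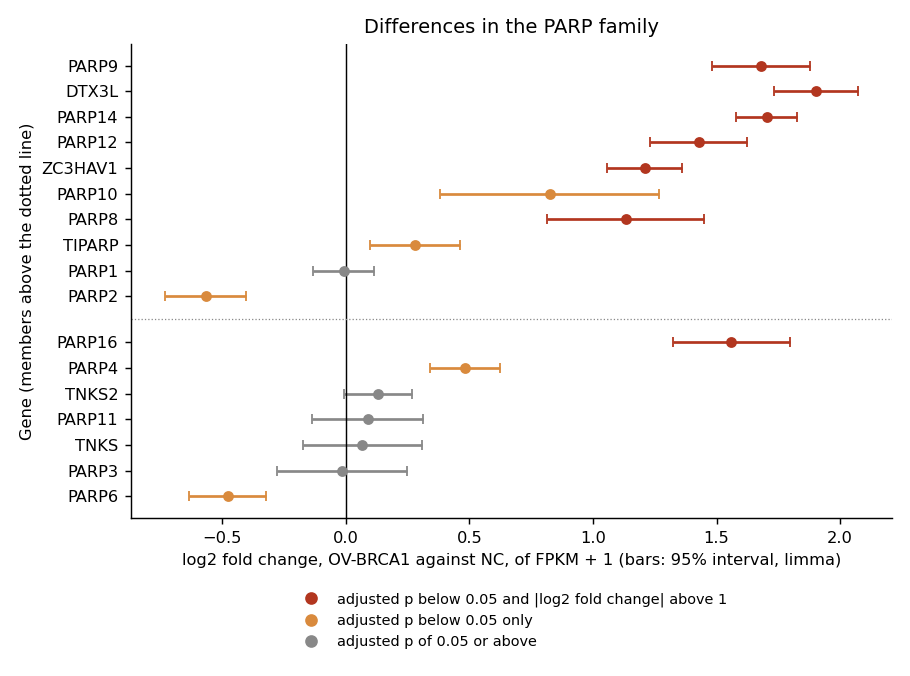
log2 fold changes of FPKM + 1 (OV-BRCA1 against NC) with 95% intervals from limma for the 10 genes and the 7 other PARP family genes tested. The intervals of PARP9, DTX3L, PARP14, PARP12 and ZC3HAV1 lie above 1, that of PARP1 spans 0 and that of PARP2 lies below 0.

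Of the 8 PARP family genes outside the 10, 7 were tested, 2 were called higher, 1 lower and 4 neither, with a median log2 fold change of 0.09. Over all genes tested, 16.4% were called higher and 18.9% lower. PARP16, a tail-anchored mono-ADP-ribosyltransferase of the endoplasmic reticulum, was 26.9, 26.0 and 27.6 FPKM in the OV-BRCA1 samples and 9.89, 7.76 and 7.82 FPKM in the NC samples. It was the only DEG among them (log2 fold change 1.56, SE 0.10, limma adjusted p = 1.28e-04), and over coding transcripts its log2 fold change was 1.03 (limma adjusted p = 2.51e-04). PARP4, a component of vault particles, was 14.9, 15.7 and 15.6 FPKM against 10.98, 10.4 and 10.8 FPKM (log2 fold change 0.48, limma adjusted p = 0.00155). PARP6, a mono-ADP-ribosyltransferase known from neurons, was 32.2, 33.1 and 31.0 FPKM against 41.9, 45.7 and 47.7 FPKM (log2 fold change -0.48, limma adjusted p = 0.00244), but its sum over coding transcripts did not differ detectably (0.09), and its most abundant transcript had -0.97.

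PARP3, which acts at double-strand breaks, was 19.5 ± 2.96 and 19.6 ± 0.786 FPKM in the OV-BRCA1 and NC groups (SD, n = 3). Over all its transcripts the log2 fold change was -0.02 (limma adjusted p = 0.915), whereas over coding transcripts it was -0.37 (limma adjusted p = 0.00760). The tankyrases TNKS and TNKS2, which act on telomeres and on the WNT regulator axin, had log2 fold changes of 0.07 and 0.13 (limma adjusted p = 0.637 and 0.126). PARP11 was low, at 0.635 ± 0.109 and 0.535 ± 0.0587 FPKM (SD, n = 3), and did not pass the test.

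Of the 3 tested relatives of DTX3L, 0 were called higher and 1 lower, against 16.4% and 18.9% of all genes tested. So few genes say little about the family. Of the 4 other Deltex ligases, 3 were tested and DTX3 was called lower, at 7.66 ± 0.173 against 13.7 ± 1.69 FPKM (SD, n = 3, log2 fold change -0.76, limma adjusted p = 0.00198), with -1.15 for its most abundant transcript. DTX2 and DTX4 did not pass the test, with log2 fold changes of -0.07 and -0.23.

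The pathway from the interferon receptors to ISGF3 had 8 of 14 genes called higher and 2 lower, against 16.4% and 18.9% of all genes tested. Its median log2 fold change was 0.68. USP18, a feedback inhibitor of the type I interferon receptor, had the largest difference of the list, with a log2 fold change of 2.39 (SE 0.05), and IRF7 had 1.62 (SE 0.12). STAT2 and IRF9, which are parts of ISGF3, were also called higher (0.93 and 0.72), but the STAT2 call was lost over coding transcripts alone (0.06, limma adjusted p = 0.741) and the IRF9 call with its most abundant transcript alone (1.54, limma adjusted p = 0.0601). Over coding transcripts IRF9 had 1.46 (limma adjusted p = 0.0280). The receptor kinases JAK1 and TYK2 were called lower (-0.28 and -0.58).

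Cofactors of ZAP moved in both directions, with 4 of 11 called higher and 3 lower, against 16.4% and 18.9% of all genes tested. Their median log2 fold change was -0.0026. TRIM25, the ubiquitin ligase that ZAP needs for its activity, was 38.7, 37.9 and 43.2 FPKM in the OV-BRCA1 samples and 21.3, 20.9 and 20.7 FPKM in the NC samples (log2 fold change 0.89, limma adjusted p = 2.11e-04). KHNYN, a nuclease that acts with ZAP, was called lower (-0.36, limma adjusted p = 0.0117). DCP1A, a decapping factor, and N4BP1, a relative of KHNYN, were called higher (0.62 and 0.56).

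Among enzymes that remove ADP-ribose and their relatives, 1 of 5 tested was called higher and 1 lower, against 16.4% and 18.9% of all genes tested. PARG, which degrades poly(ADP-ribose) chains, had 6.33 ± 0.693 against 4.53 ± 0.622 FPKM (SD, n = 3, log2 fold change 0.41, limma adjusted p = 0.0362), but over coding transcripts alone the log2 fold change was 0.14 (limma adjusted p = 0.586) and with the most abundant transcript 0.13 (limma adjusted p = 0.651). The PARG call was also lost without OV-BRCA1 replicate 1 or 2, without NC replicate 1 or 3, with no filter on low values and with scaling to nuclear protein-coding genes. MACROD1, a mono-ADP-ribosyl hydrolase, was called lower (-0.46, limma adjusted p = 0.0107). OARD1 and ADPRHL1 did not pass the test (0.25 and -0.22).

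Of the 13 partners of PARP1 in single-strand break repair, 1 was called higher and 3 lower, against 16.4% and 18.9% of all genes tested. Their median log2 fold change was -0.04. TIMELESS, a fork protection factor that binds PARP1, was 12.8, 12.05 and 14.3 FPKM in the OV-BRCA1 samples and 24.3, 25.4 and 25.1 FPKM in the NC samples (log2 fold change -0.88, limma adjusted p = 3.96e-04), and over coding transcripts its log2 fold change was -0.56 (limma adjusted p = 0.0153). The ligase LIG1 had a log2 fold change of -0.61, lost over coding transcripts alone (-0.20, limma adjusted p = 0.413), and TDP2 had 0.28. HPF1, the cofactor that directs PARP1 and PARP2 to serine, and XRCC1, the scaffold recruited by poly(ADP-ribose), had -0.11 and -0.37 and did not pass the test (limma adjusted p = 0.161 and 0.368).

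NAD, the substrate of the catalytically active PARPs, is recycled by NAMPT, which makes its precursor from nicotinamide. NAMPT was 72.1, 75.0 and 75.3 FPKM in the OV-BRCA1 samples and 23.6, 24.0 and 23.8 FPKM in the NC samples (log2 fold change 1.60, SE 0.05, limma adjusted p = 5.83e-06). Of the 7 NAD supply genes tested it was the only one called higher, against 16.4% of all genes tested. NADSYN1, an NAD synthase, was the only one called lower (-0.40, limma adjusted p = 0.00811), against 18.9% of all genes tested. The NADSYN1 call was lost with its most abundant transcript alone at a like log2 fold change (-0.40, limma adjusted p = 0.566). NNMT, which methylates nicotinamide, stood at 172 ± 8.51 and 164 ± 4.92 FPKM (SD, n = 3) and did not pass the test (0.06), nor did NMNAT2 (0.13).

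Other NAD consumers had a median log2 fold change of -0.30. Of 8 tested, 0 were called higher and 3 lower, against 16.4% and 18.9% of all genes tested. The 3 called lower were the deacylases SIRT2 (-0.73) and SIRT7 (-0.31) and the NAD hydrolase SARM1 (-0.42). The SIRT2 call was lost over coding transcripts, where the log2 fold change was -1.03 (limma adjusted p = 0.278), and with its most abundant transcript, where it was 0.88 (limma adjusted p = 0.566). The SIRT7 and SARM1 calls were each lost in 4 of the 6 fits that left out a sample, with log2 fold changes of -0.30 to -0.27 and -0.42 to -0.33 in those fits. The most abundant SARM1 transcript had -0.64 (limma adjusted p = 0.0220). SIRT7 also lost its call with its most abundant transcript (-0.46, limma adjusted p = 0.444), and over coding transcripts its direction turned (0.65, limma adjusted p = 0.169). SIRT3 had -0.49 (limma adjusted p = 0.0566) and was called lower with the replicate number as a block (-0.49, limma adjusted p = 0.0315), with scaling to nuclear protein-coding genes (-0.52, 0.0412), with its most abundant transcript (-0.77, 0.0332) and without NC replicate 2 (-0.63, 0.0288).

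The aryl hydrocarbon receptor pathway, which controls TIPARP, had 2 of 7 genes called higher and 3 lower, against 16.4% and 18.9% of all genes tested. AHR itself was 18.1, 18.9 and 20.6 FPKM in the OV-BRCA1 samples and 8.47, 8.38 and 8.17 FPKM in the NC samples (log2 fold change 1.11, limma adjusted p = 1.11e-04). Its partner ARNT was downregulated (-1.05, limma adjusted p = 2.21e-04), the target CYP1A1 was higher at a low level (2.23 ± 0.742 against 0.472 ± 0.234 FPKM, SD, n = 3, log2 fold change 1.12, or 2.05 with a pseudocount of 0.1) and the target ALDH3A1 was lower (-1.22), a call lost with its most abundant transcript alone (-0.95, limma adjusted p = 0.126). CYP1B1, more abundant than CYP1A1, was also called lower (76.1 ± 2.59 against 91.3 ± 2.85 FPKM, SD, n = 3, log2 fold change -0.26, limma adjusted p = 0.00848). AHRR, a feedback repressor of the receptor, did not pass the test (0.18), but was called higher without NC replicate 3 (0.35, limma adjusted p = 0.0427). The core of the element that AHR and ARNT bind, TNGCGTG on either strand, was in 0 of the 9 members with a promoter window and in 6.69% of all genes with one.

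**Figure D5:**
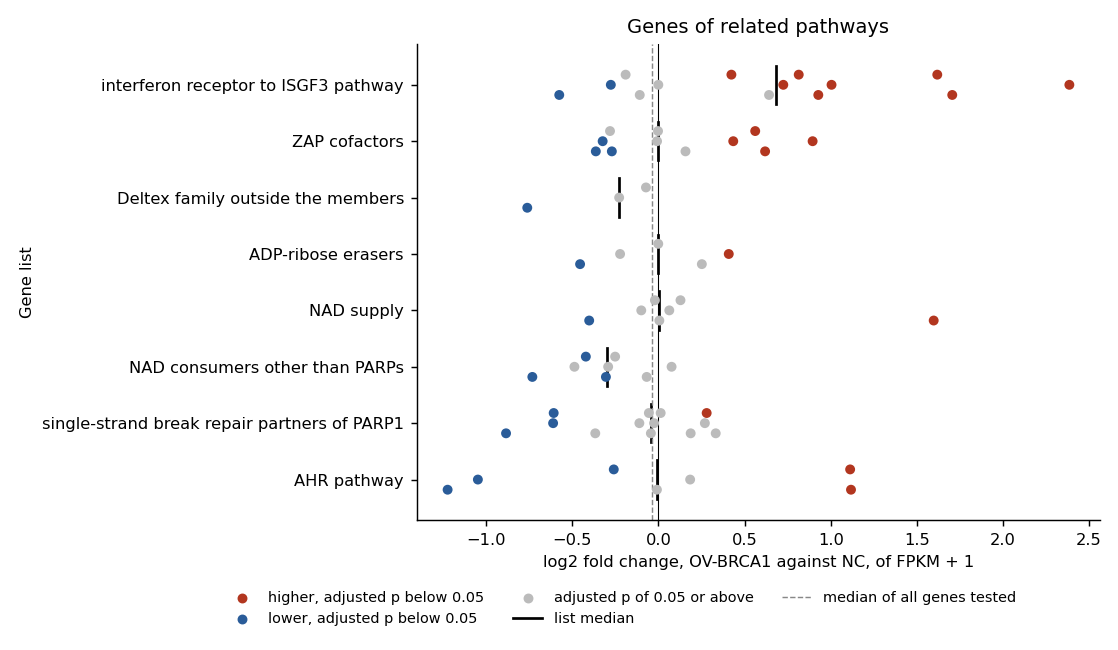
log2 fold changes of FPKM + 1 (OV-BRCA1 against NC) of every tested gene in 8 related lists, coloured by call, with list medians and the median of all genes tested (dashed). The interferon pathway list has a median of 0.68, and the other 7 lists have medians between -0.30 and 0.01.

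Over the 6 samples, the genes most like PARP9 among 9260 genes with a mean of at least 5 FPKM were MFSD2A, IFI16 and HERC6, by Euclidean distance of centred log2(FPKM + 1) values (0.15, 0.16 and 0.18). DTX3L was closest to OLR1, VEGFC and H1F0 (0.17, 0.18 and 0.18). PARP14 was closest to HERC5, HIST2H4A and HERC6 (all 0.09 to 0.10). From PARP9, PARP14 ranked 11 and DTX3L 35 of these genes. PARP1 was closest to SHQ1, NDUFA10 and NR2F6 (0.04 to 0.05). With 2 groups of 3 samples this likeness mostly reads the difference between the groups.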

How the data were processed

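Messenger RNA libraries from 6 SiHa samples were analysed, grouped by the transfection given in the labels. The authors deposited FPKM per transcript in 1 table, whose values equal those of the 6 sample files. The submitters' processing notes name FastQC, HISAT2 and hg38, without roles. The quantifier, annotation and use of strand are not given in the sources used here.

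FPKM was summed over the 199167 transcripts to 58174 genes. GENCODE 29 held 198868 of the transcripts, 98.7% at the same position. Genes with at least 0.5 FPKM in at least 3 samples were tested as log2(FPKM + 1) with limma 3.58.1 (R 4.3.3, trend, not robust) and Benjamini-Hochberg adjustment over all of them. The pseudocount understates changes of low genes. A call is an adjusted p below 0.05, and a DEG also has an absolute log2 fold change above 1. On simulated data the fit was tested for recovery of known changes. Ratios were compared by exact permutation tests, enumerated with numpy 2.4.6. The 95% intervals took their t quantile from scipy 1.17.1. Depth was estimated from the periodicity of low values, of which 29.9% to 35.1% lay within 0.1 of a whole fragment, so whole reads were not recovered.

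The members and lists were chosen with earlier results of these data known. Named were all members, BRCA1, the rest of the family, up to 4 genes per list with the smallest adjusted p, fixed pathway genes (STAT2, IRF9, HPF1, XRCC1, PARG, NAMPT, TRIM25, KHNYN, AHR, DTX3 and AHRR), and the 3 genes most like PARP9, DTX3L, PARP14 and PARP1. Chromosome 3 neighbours, GRINA, JAK1, TYK2, RPPH1, CYP1B1 and markers were named outside this rule, after their values were seen. A few genes that this rule covers are not reported here. Equal replicate numbers did not pair samples (correlation of deviations -0.02, 0.03 and 0.01). Alternatives were a pseudocount of 0.1, no filter or a stricter one (1 FPKM in every sample), 2 other scalings, a replicate block, robust estimation, the most abundant transcript, leaving out each sample and, added after the data were seen, protein-coding transcripts only and ZC3HAV1 forms without ZC3HAV1-202.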

Additional observations from a re-analysis of the deposited data

How the results depend on the processing

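Over all alternatives, the log2 fold changes of the 10 genes kept direction and side of the threshold in 133 of 150 refits, 11 lost the call and 6 changed sign. PARP9, DTX3L, PARP14, PARP12 and ZC3HAV1 kept their calls in every refit. With the most abundant transcript 5 of 10 genes were called (9 in the sum over transcripts), with 0 of the DNA-repair members, the antiviral minus DNA-repair contrast was 1.40, the PARP9 to DTX3L difference -0.0454, the PARP1 to PARP2 difference 0.42 and the ZC3HAV1 long-form difference -9.47 points. With coding transcripts only, the contrast was 1.35 and the PARP1 to PARP2 difference 0.37. Without ZC3HAV1-202 the long-form difference was 0.965 points. Sign changed for PARP1 (0.0271 with median-of-ratios scaling, 0.0056 with the most abundant transcript, 0.0110 with coding transcripts, 0.0212 without OV-BRCA1 replicate 2, 0.0096 without NC replicate 3, with -0.0281 to 0.0212 over all samples left out) and PARP3 (0.0180 with median-of-ratios scaling, 0.0787 without OV-BRCA1 replicate 2, 0.0137 without NC replicate 1, range -0.126 to 0.0787). With the most abundant transcript it changed for TIPARP (-0.40), PARP11 (-0.0101), TNKS (-0.0251), OARD1 (-0.144), ADPRHL1 (0.0461) and SIRT2 (0.88), with coding transcripts for PARP6 (0.0918) and SIRT7 (0.65), without OV-BRCA1 replicate 3 for ADPRHL1 (range -0.451 to 0.0414) and without NC replicate 2 for NMNAT2 (range -0.0313 to 0.208). The cause was not tested. Leaving out each sample gave 8 to 9 called genes, 6 antiviral and 1 DNA-repair call, 3 calls in the rest of the family, a contrast of 1.80 to 1.90, a PARP9 to DTX3L difference of -0.34 to -0.23, a PARP1 to PARP2 difference of 0.52 to 0.64 and a long-form difference of -7.40 to -5.14 points. With the replicate number as a block, TIPARP lost its call (0.28, adjusted p = 0.0547, limma), SIRT3 gained one (-0.49, adjusted p = 0.0315, limma) and 8 of the 10 genes stayed called. Over all genes the block gave 2159 higher and 2436 lower calls (2674 and 3090 without it), and the most abundant transcript gave 1685 and 1606. Median-of-ratios scaling gave 2963 higher and 2775 lower calls. DEG counts with a pseudocount of 0.1 were 764 higher and 516 lower (472 and 179 with 1).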
